A study of Mus musculus with 10 samples.

Results

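Integrins and laminins are 2 families of proteins through which a cell holds on to its matrix, and their subunits were compared here between MC38 and MC38.T4 cells in culture. The genes were taken by name, as rows of the FPKM table for an integrin alpha or beta subunit or a laminin alpha, beta or gamma chain, and 36 of 54343 rows are described (18 integrin alpha, 8 integrin beta and 10 laminin genes). Binding partners whose names only look similar (Itgb1bp1, Itgb1bp2, Itgb3bp) and the integrin-like genes Itgbl1 and Itgb2l were left out. RNA was measured by polyA-selected, strand-specific sequencing in 5 libraries of parental MC38, labelled wild type and bought from a vendor, and 5 of MC38.T4. The MC38.T4 line was derived from MC38 cells transfected with a human mesothelin vector (huMSLN.pcDNA3.1) and sorted as single clones (MC38.huMSLN.34). These were grown as tumours in C57/BL6 mice for about 25 days, taken back into culture for 10 generations, and recloned from 1 cell with low mesothelin. MC38.T4 is thus 1 clone, and vector, passage through a mouse and cloning all separate it from MC38 and cannot be told apart. The labels call the cells both colon cancer and melanoma. Of 15 epithelial marker genes 2 were tested, and both were called lower in MC38.T4, as were 42.9% of all tested genes. The tight junction gene Tjp1 went from 21.9 ± 1.9 to 18.7 ± 0.56 FPKM. The epithelial transcription factor gene Grhl2 went from 3.59 ± 0.30 to 0.0445 ± 0.0090 FPKM. It reached the 1 FPKM needed for testing in MC38 only, and so had to differ. Of the untested genes, Cdh1 was higher in MC38.T4 (0.0084 to 0.0293 FPKM in MC38, 0.908 to 1.10 FPKM in MC38.T4). Krt8 was also higher (0 to 0.0313 FPKM and 0.118 to 0.227 FPKM), and Krt18 stayed at or below 0.0207 FPKM. The list summed to between 24.7 and 29.8 FPKM in MC38 and between 19.5 and 21.1 FPKM in MC38.T4, most of it Tjp1. Epcam lay between 0 and 0.0168 FPKM in all 10 libraries. Of 7 melanocyte markers 1 was tested, Mitf (0.781 to 1.74 FPKM), which reached 1 FPKM in MC38.T4 only and so had to differ. Pmel stood at 0.522 and 0.178 FPKM.

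An integrin is a pair of 1 alpha and 1 beta subunit that spans the cell membrane, and only the assembled pair travels to the cell surface. The alpha subunit largely sets what is bound: alpha3, alpha6 and alpha7 bind laminins, alpha5 binds fibronectin and alphav binds vitronectin and other proteins with an RGD motif. Beta1 has the most partners, beta2 and beta7 pair with alpha subunits typical of white blood cells, and beta4 pairs with alpha6 in epithelia. Laminins are the matrix side of this contact in basement membranes, each a trimer of 1 alpha, 1 beta and 1 gamma chain, of which the alpha chain carries the main integrin-binding site.

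Values are FPKM, which divides by gene length. The lengths used and the handling of shared reads are not given, so levels of different genes, and ratios between them, compare only roughly. Differences are in log2(FPKM + 1), positive where MC38.T4 was higher, with their standard error (SE), and they understate changes of low genes. They were tested with limma, with Benjamini-Hochberg adjustment over the 11110 genes that had at least 1 FPKM in at least 5 libraries. The labels do not state whether libraries of 1 line came from separate cultures, so the tests measure the spread between these libraries, which may be technical. FPKM summed to between 442183 and 484460 per library. The number of reads is unknown. The spacing of low values gives a depth relative to MC38 replicate 1 of 0.877 to 1.14. This holds only if FPKM was scaled by total reads, which is not stated.

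Of the 36 genes 13 passed the filter on low values, and among these MC38.T4 had less RNA of 4 of 5 alpha subunits and of all 3 laminin chains but more of 4 of 5 beta subunits. The filter left out 13 alpha, 3 beta and 7 laminin genes. Of the 13, 4 rose (Itgb1, Itgb2, Itgb5 and Itgb8), 8 fell (Itga3, Itga6, Itga7, Itgav, Itgb7, Lamb1, Lamb2 and Lamc1) and Itga5 did not pass. The lines differ so widely that this must be read against all tested genes, of which 86.0% were called, 43.1% as higher and 42.9% as lower. The share of subunits called, 12 of 13 (92.3%), is near that background, while 61.5% of them fell. Their median log2 difference was -0.97, against 0.001 over all tested genes. Differences of at least 1 in log2(FPKM + 1), in either direction, were called for 6 of the 13, against 17.2% of all tested genes. Libraries of the lines did not overlap for 12 of the 13, against 77.4% of all tested genes, and each of these 12 had the smallest p that an exact two-sided permutation test of 5 against 5 libraries can give (0.00794). Itgb2 and Itga7 passed the filter through 1 line only and so had to differ. In bulk RNA, fewer cells expressing a gene and less RNA per cell cannot be told apart.

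**Figure D1:**
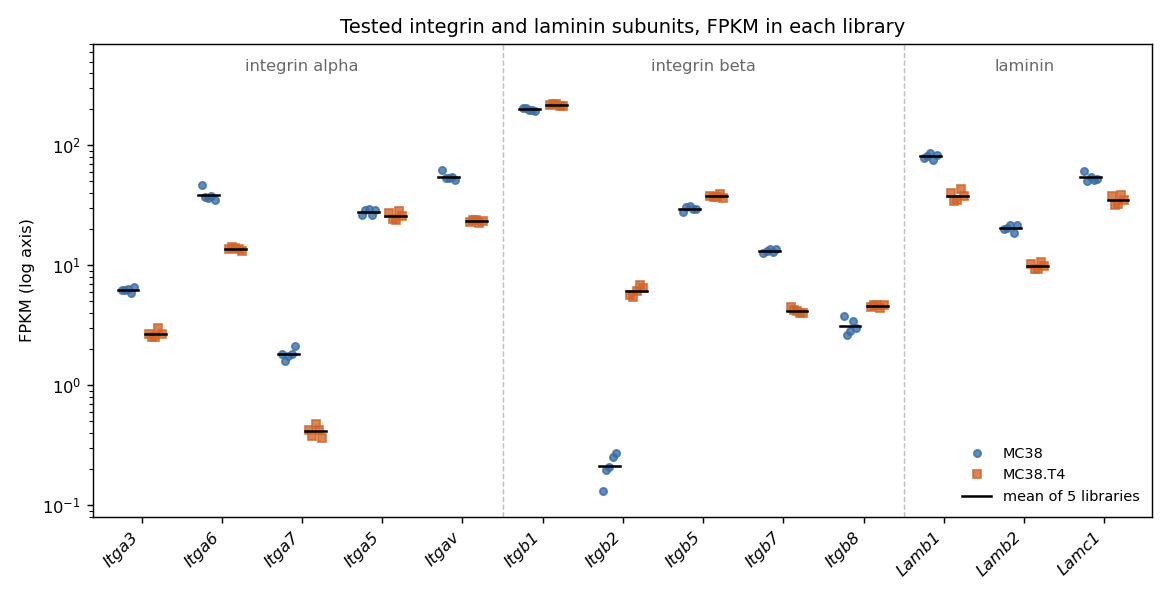
FPKM on a log axis of the 13 tested subunits in each of 5 MC38 (circles) and 5 MC38.T4 (squares) libraries, with black lines at the means. The lines do not overlap for any of these genes but Itga5, and Itgb1 is the highest subunit in both.

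**Figure D2:**
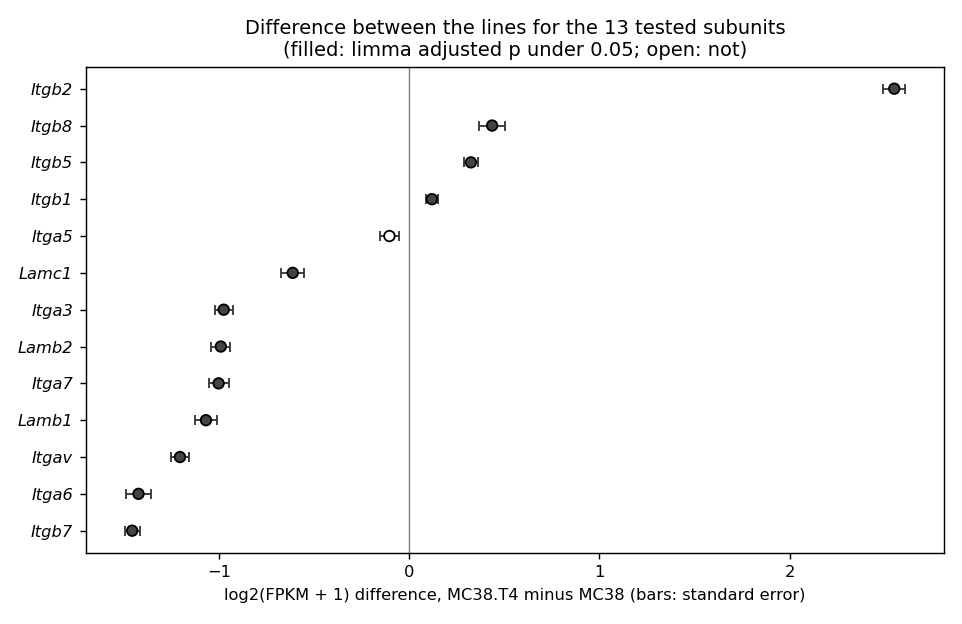
Log2(FPKM + 1) difference, MC38.T4 minus MC38, of the 13 tested subunits, with standard errors as bars; filled points passed limma at an adjusted p under 0.05. The 4 genes right of zero are beta subunits, from Itgb1 (0.12) to Itgb2 (2.55), and Itgb7 (-1.46) and Itga6 (-1.42) lie farthest left.

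The laminin-binding alpha subunits fell, all 3 of them. Itga6, which pairs with beta1 or beta4, stood at 46.96, 37.2, 36.2, 37.5 and 34.7 FPKM in MC38 replicates 1 to 5 and at 13.7, 14.1, 13.9, 13.6 and 13.1 FPKM in those of MC38.T4. Every MC38.T4 library lay below every MC38 library, and MC38 replicate 1 stood above the other 4. The difference was -1.42 (SE 0.06, limma adjusted p = 2.22e-11), or a 2.82-fold fall of the mean, and it was -1.35 without MC38 replicate 1. Itga3, a receptor for laminins of epithelial basement membranes, lay between 5.85 and 6.61 FPKM in MC38 and between 2.52 and 2.98 FPKM in MC38.T4. Its fall by 0.97 (SE 0.05, adjusted p = 2.66e-11) is 2.32-fold. Itga7, known as the laminin receptor of muscle, was the least abundant of the 3, at 1.60 to 2.13 FPKM in MC38 and 0.365 to 0.477 FPKM in MC38.T4. It passed the filter through MC38 only and so had to differ. Its mean fell 4.44-fold, the difference being -1.001 (SE 0.05, adjusted p = 8.05e-11) and -1.91 with a pseudocount of 0.1. Together the 3 genes summed to 46.6 ± 4.7 FPKM in MC38 and 16.8 ± 0.38 FPKM in MC38.T4 (mean ± SD, n = 5 each). Their share of the RNA of all alpha subunits went from 35.5% ± 1.5 to 24.8% ± 0.64, with no overlap between the lines. Most of this was Itga6 (29.3% ± 1.9 to 20.2% ± 0.77), while the share of Itga3 overlapped (4.76% ± 0.37 and 3.96% ± 0.20). A lower share was not particular to laminin-binding subunits, as that of Itgav also fell without overlap (41.9% ± 0.79 to 34.4% ± 1.5).

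Of the tested RGD-binding alpha subunits, the vitronectin receptor subunit Itgav fell and the fibronectin receptor subunit Itga5 did not pass. Itgav, which can pair with beta1, beta3, beta5, beta6 or beta8, was the most abundant alpha subunit of MC38. It stood at 62.1, 53.6, 53.4, 54.1 and 51.5 FPKM in MC38 replicates 1 to 5 and at 22.9, 23.8, 23.7, 22.6 and 23.2 FPKM in MC38.T4. MC38 replicate 1 was again the highest, and all MC38.T4 libraries lay below all MC38 libraries. It fell 2.36-fold (log2 difference -1.204, SE 0.04, adjusted p = 1.41e-12), with a difference of -1.16 without MC38 replicate 1. Itga5, which pairs only with beta1, stood at 26.0, 28.7, 29.6, 26.3 and 28.6 FPKM in MC38 and at 27.1, 24.2, 24.0, 28.3 and 25.6 FPKM in MC38.T4. These ranges overlap. The difference of -0.10 (SE 0.05) missed the threshold (adjusted p = 0.0676, exact permutation p = 0.119, two-sided, n = 5 each), which does not show equal levels. It passed in 7 of 19 alternatives, rescaling to TPM among them (-0.15, adjusted p = 0.00918); across them all the adjusted p ran from 0.00516 to 0.184. Itga5 RNA amounted to 51.0% ± 5.8 of Itgav RNA in MC38 and 111% ± 10.4 in MC38.T4. Its share of all alpha RNA was 21.3% ± 2.1 in MC38 and 38.2% ± 1.9 in MC38.T4, without overlap.

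The beta1 subunit, the common partner, was the highest integrin transcript of both lines and rose slightly. Itgb1 stood at 204.8, 204.5, 197.2, 197.0 and 193.5 FPKM in MC38 and at 216.9, 219.5, 222.2, 212.0 and 213.2 FPKM in MC38.T4. The MC38.T4 libraries were all higher, 1.09-fold in the mean. The rise of 0.12 (SE 0.03, adjusted p = 0.00218) did not hold after rescaling to TPM (0.07, adjusted p = 0.0717), and its adjusted p ran from 0.000265 to 0.0717 across 19 alternatives. Itgb1 made up 81.1% ± 0.66 of the RNA of all beta subunits in MC38 and 80.5% ± 0.61 in MC38.T4, and these ranges overlap. The alpha subunits that can pair with it summed to 65.4% ± 2.9 of Itgb1 FPKM in MC38 and to 30.9% ± 1.1 in MC38.T4. All alpha subunits together went from 130.9 ± 7.8 to 67.6 ± 1.5 FPKM, and all beta subunits from 245.7 ± 4.5 to 269.4 ± 3.5 FPKM. Alpha RNA per beta RNA was thus 53.3% ± 2.7 in MC38 and 25.1% ± 0.75 in MC38.T4. These are RNA levels, and subunit proteins and surface pairs were not measured.

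**Figure D3:**
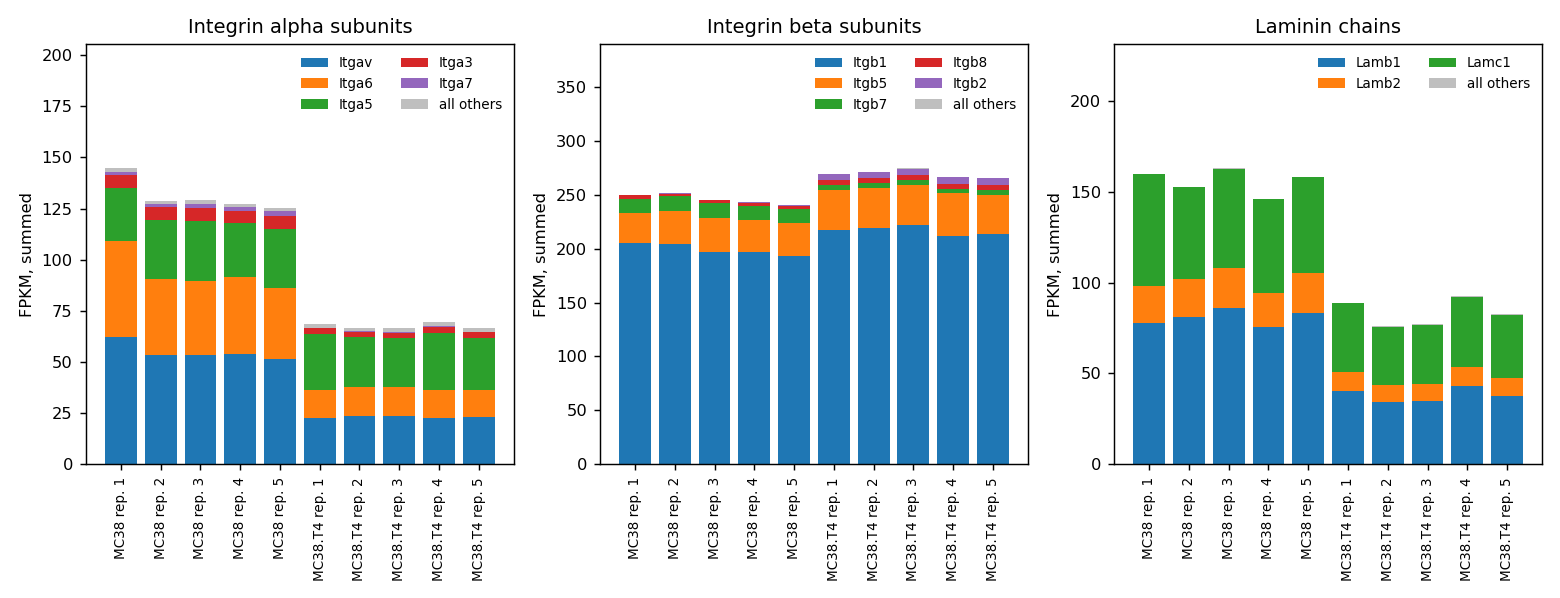
Stacked FPKM of integrin alpha subunits, integrin beta subunits and laminin chains (3 panels with separate linear axes) in each of the 10 libraries, grey being all other members of the group. The alpha stack is on average 130.9 FPKM high in MC38 and 67.6 FPKM in MC38.T4, the beta stack 245.7 and 269.4 FPKM.

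Both tested subunits that pair only with alphav rose while Itgav itself fell. Itgb5, the beta subunit of a vitronectin receptor found in clathrin-coated adhesions, stood at 28.0, 30.6, 31.0, 29.2 and 29.7 FPKM in MC38 and at 37.7, 37.0, 36.8, 39.0 and 36.7 FPKM in MC38.T4. All MC38.T4 libraries were higher, by 0.32 on the log2 scale (SE 0.03, adjusted p = 3.86e-07) or 1.26-fold. Itgb8, whose pair with alphav binds latent TGF-beta, lay between 2.64 and 3.80 FPKM in MC38 and between 4.37 and 4.70 FPKM in MC38.T4 (difference 0.44, SE 0.07, adjusted p = 1.91e-05). Itgb3, the partner that alphav shares with the platelet subunit alphaIIb, stayed at or below 0.0862 FPKM, and Itgb6, an epithelial partner, at or below 0.0277 FPKM. Counted against Itgav, Itgb5 RNA went from 54.4% ± 5.4 in MC38 to 161% ± 7.6 in MC38.T4. The partners beta3, beta5, beta6 and beta8 together went from 60.1% ± 5.1 to 181% ± 7.4 of Itgav, with no overlap. In MC38 there was more Itgav RNA than RNA of these partners, and in MC38.T4 less. This leaves out beta1, which alphav shares with other alpha subunits. Itgb1 alone, at means of 199 and 217 FPKM, exceeded Itgav (54.9 and 23.2 FPKM) in both lines.

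Both beta subunits of white blood cell integrins changed, in opposite directions, while their alpha partners were close to 0. Itgb2, the beta subunit of LFA-1 and Mac-1, stood at 0.131, 0.196, 0.207, 0.25 and 0.273 FPKM in MC38 and at 5.64, 5.49, 6.07, 6.90 and 6.42 FPKM in MC38.T4. The groups lie far apart, with means 28.9-fold apart. The rise was 2.55 (SE 0.06, adjusted p = 8.35e-15), and 4.33 with a pseudocount of 0.1. Itgb2 passed the filter through MC38.T4 only and so had to differ. Its partners Itgal, Itgam, Itgax and Itgad summed to between 0.101 and 0.172 FPKM in MC38 and between 0.0519 and 0.0819 FPKM in MC38.T4. No library held more of these 4 alpha subunits in MC38.T4 than the lowest MC38 library did. Itgb7, the beta subunit of gut-homing lymphocyte integrins, stood at 12.6, 13.1, 13.7, 12.9 and 13.6 FPKM in MC38 and at 4.47, 4.22, 4.19, 4.02 and 4.01 FPKM in MC38.T4. It fell by 1.46 (SE 0.04, adjusted p = 4.43e-14), or 3.16-fold. Its partners Itga4 and Itgae summed to at most 0.0666 FPKM in MC38 and 0.0863 FPKM in MC38.T4. Of 16 leukocyte markers 14 stayed under 0.5 FPKM in every library, the exceptions being Cd14 (3.44 ± 0.33 and 3.19 ± 0.32 FPKM) and Lyz2 (0.805 ± 0.24 and 0.237 ± 0.055 FPKM). The list summed to between 3.96 and 4.95 FPKM in MC38 and between 3.32 and 3.96 FPKM in MC38.T4, and 6 of its genes were listed at 0 throughout. Ptprc, the pan-leukocyte gene, lay between 0.0116 and 0.0420 FPKM in MC38 and at or below 0.0064 FPKM in MC38.T4, and Cd3e was listed at 0 in all libraries.

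The laminin chains Lamb1, Lamb2 and Lamc1 fell. Lamb1, the most abundant, stood at 78.0, 81.2, 86.1, 75.4 and 83.4 FPKM in MC38 and at 40.4, 34.5, 35.0, 43.2 and 37.6 FPKM in MC38.T4. No MC38.T4 library reached the lowest MC38 library, and the fall was by 1.07 (SE 0.06, adjusted p = 1.86e-10) or 2.12-fold. Lamb2, a beta chain of nerve, muscle and kidney basement membranes, fell 2.09-fold, from 18.6 to 21.8 FPKM in MC38 to 9.22 to 10.6 FPKM in MC38.T4 (difference -0.99, SE 0.05, adjusted p = 4.55e-11). Lamb1 took 79.7% ± 0.30 of beta chain RNA in MC38 and 79.4% ± 0.59 in MC38.T4. Lamc1, the gamma chain of most laminins, stood at 61.5, 50.4, 54.6, 51.8 and 52.7 FPKM in MC38 and at 37.9, 31.9, 32.6, 38.4 and 34.97 FPKM in MC38.T4. Its fall by 0.61 (SE 0.06, adjusted p = 2.17e-07) is 1.54-fold, and it was 0.57 without MC38 replicate 1.

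No laminin alpha chain reached 0.2 FPKM in any library. Lama3 was the highest, at 0.0958 to 0.175 FPKM in MC38 and 0.0942 to 0.159 FPKM in MC38.T4, and those ranges overlap. The other alpha chains, Lama1, Lama2, Lama4 and Lama5, lay between 0.0044 and 0.0647 FPKM. The alpha chains summed to 0.245 ± 0.054 FPKM in MC38 and 0.224 ± 0.030 FPKM in MC38.T4, against sums of Lamc1 and Lamc3 of 54.2 ± 4.4 and 35.2 ± 3.0 FPKM. Lamb3, a beta chain of epithelia, stayed at or below 0.0434 FPKM, and Lamc3 was listed at 0 in all but 2 libraries. Of 10 laminin trimers compiled from textbook knowledge none had all its chains at a mean of 1 FPKM in either line. Of 24 integrin pairs 7 had both subunits at that level in MC38 and 6 in MC38.T4, the one lost being alpha7-beta1. The others were beta1 with alpha3, alpha5, alpha6 and alphav, and alphav with beta5 and beta8.

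The bases before the start of 4 of these genes are shown, since they are chains or partners described above: Lamb1 and Lamb2, which both fell, and Itgav and Itgb5, which went opposite ways. They are the 250 bases upstream of the start in RefSeq's mouse promoter table, 5′ to 3′ on the gene's strand (plus for all 4), and that table held 23 of the 36 genes. Positions are in GRCm38.p6, another build than the authors' GRCm39: chr12:31265043-31265292 for Lamb1, chr9:108479612-108479861 for Lamb2, chr2:83724147-83724396 for Itgav and chr16:33829415-33829664 for Itgb5. Capitals mark the GC box GGGCGG, known as a binding motif of SP1-type factors, on either strand.
Lamb1: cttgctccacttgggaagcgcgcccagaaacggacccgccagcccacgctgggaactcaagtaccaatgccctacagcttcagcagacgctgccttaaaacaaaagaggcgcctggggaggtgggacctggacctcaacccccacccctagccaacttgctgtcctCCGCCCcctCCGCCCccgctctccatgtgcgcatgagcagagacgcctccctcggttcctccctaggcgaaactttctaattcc
Lamb2: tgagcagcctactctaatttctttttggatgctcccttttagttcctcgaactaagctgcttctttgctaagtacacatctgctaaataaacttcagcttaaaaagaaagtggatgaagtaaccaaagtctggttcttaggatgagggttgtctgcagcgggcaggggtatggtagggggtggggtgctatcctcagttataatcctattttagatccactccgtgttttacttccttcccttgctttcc
Itgav: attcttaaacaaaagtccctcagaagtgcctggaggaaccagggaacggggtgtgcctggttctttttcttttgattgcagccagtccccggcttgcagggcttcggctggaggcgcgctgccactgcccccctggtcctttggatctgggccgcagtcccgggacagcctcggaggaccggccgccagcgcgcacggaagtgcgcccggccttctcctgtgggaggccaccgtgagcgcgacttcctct
Itgb5: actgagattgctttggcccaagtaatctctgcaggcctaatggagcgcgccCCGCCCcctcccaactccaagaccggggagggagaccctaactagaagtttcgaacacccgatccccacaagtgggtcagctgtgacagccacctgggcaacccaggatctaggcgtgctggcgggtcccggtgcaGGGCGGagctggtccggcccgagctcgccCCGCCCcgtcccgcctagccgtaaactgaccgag
The Lamb1 sequence holds 2 GC boxes and the Itgb5 sequence 3, and none was found in the Lamb2 and Itgav sequences. At least 1 is held by 32.7% of the 32851 sequences of this length. The AP-1 motif TGANTCA, searched on both strands, was found in none of the 4, so no match overlaps a GC box, and in 6.75% of all of them. The GC content was 62.0% for Lamb1, 43.6% for Lamb2, 64.4% for Itgav and 65.2% for Itgb5, against a median of 52.4% over all. Lamb1 and Lamb2 thus differ in base composition (14 and 3 CpG dinucleotides), and the matches are a description of the letters only.

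The other 23 genes stayed below 1 FPKM in every library, and 18 of them below 0.2 FPKM. Without the filter 8 of the 23 were called, 4 higher and 4 lower, against 47.8% of the 26597 genes in that fit. Itga8, an RGD-binding partner of beta1, stood at 0 to 0.0312 FPKM in MC38 and at 0.333 to 0.388 FPKM in MC38.T4 (unfiltered adjusted p = 2.02e-08). Itgb4, the long-tailed partner of alpha6 in hemidesmosomes, stood at 0.0139 to 0.0562 FPKM in MC38 and at 0.204 to 0.2997 FPKM in MC38.T4 (unfiltered adjusted p = 2.57e-06). It remained small beside Itga6, at 0.083% ± 0.044 of Itga6 in MC38 and 1.87% ± 0.32 in MC38.T4. The collagen receptor subunit Itga2 stood at 0.157, 0.105, 0.117, 0.109 and 0.0962 FPKM in MC38. Of the MC38.T4 libraries 4 list it at 0 and the fifth at 0.0070 FPKM (unfiltered adjusted p = 4.11e-06). The other 2 called higher were Itgb3, at 0 to 0.0135 FPKM in MC38 and 0.0275 to 0.0862 FPKM in MC38.T4, and Itgax (highest value 0.0185 FPKM). The other 3 called lower were Itgad, at 0.0675 to 0.105 FPKM in MC38 and 0.0059 to 0.0308 FPKM in MC38.T4, Itgal, at 0.0292 to 0.0731 and 0.0182 to 0.0287 FPKM, and Itga10. These are levels at which a few reads can move a value, and the reads behind them are not known. Itga10 was the highest of all collagen-binding subunits, at 0.605 ± 0.075 FPKM in MC38 and 0.474 ± 0.044 FPKM in MC38.T4. Itga1, its relative and the neighbour of Itga2 on chromosome 13, stood at 0.298 ± 0.015 and 0.302 ± 0.052 FPKM. The platelet subunit Itga2b had 0.234 to 0.457 FPKM in MC38 and 0.403 to 0.531 FPKM in MC38.T4. Of the platelet markers Gp1bb had means of 0.0477 and 0.345 FPKM and Gp1ba of 0.147 and 0.188 FPKM in the same lines, Pf4 and Gp9 did not exceed 0.0333 FPKM, and all 8 genes of that list stayed under 0.5 FPKM in every library. Itgae, the alpha subunit of the integrin that binds E-cadherin, lay between 0.0139 and 0.0863 FPKM, and its ligand gene Cdh1 at up to 0.0293 FPKM in MC38 and 0.908 to 1.10 FPKM in MC38.T4. Itgam did not exceed 0.0246 FPKM, and Itga4, Itga9 and Itga11 did not exceed 0.0180 FPKM.

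**Figure D4:**
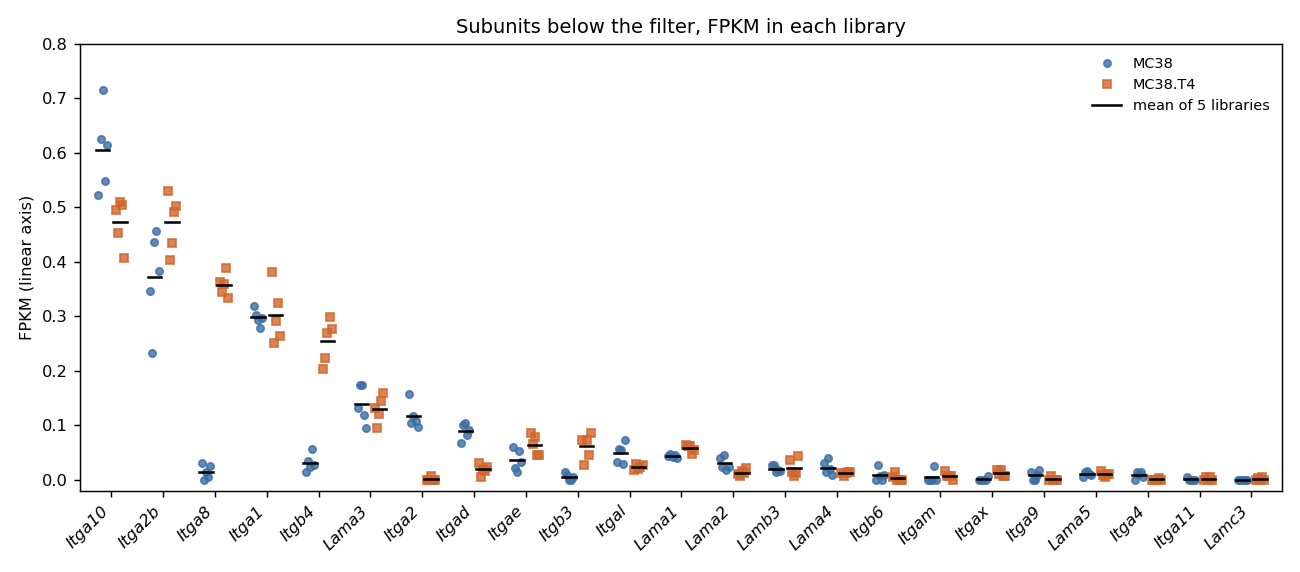
FPKM on a linear axis of the 23 subunits below the filter in each of 5 MC38 (circles) and 5 MC38.T4 (squares) libraries, with black lines at the means, ordered by their highest value. Itga8 and Itgb4 stand higher in MC38.T4 and Itga2 lower, and no value exceeds 0.715 FPKM.

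Genes that act with integrins went both ways, and their counts stand against the 43.1% of all tested genes called higher and the 42.9% called lower. Among 23 tested genes for talins, kindlins and other adaptors and regulators that act at integrin tails, 14 rose and 6 fell, with a median log2 difference of 0.19. The largest rises were those of Tns2, a tensin (6.96 to 20.7 FPKM, adjusted p = 6.8e-13), and Dab2, an endocytic adaptor of beta tails (8.66 to 24.2 FPKM, adjusted p = 8.26e-14). The largest falls were those of the GTPase gene Rap1b (122.1 to 72.3 FPKM, adjusted p = 1.35e-09) and of Itgb1bp1, which encodes the beta1-tail inhibitor ICAP-1 (73.9 to 47.1 FPKM, adjusted p = 3.21e-09). Of 17 focal adhesion signalling genes 5 rose and 9 fell, with a median of -0.17. Nedd9, a scaffold phosphorylated on adhesion, went from 0.929 to 9.501 FPKM (10.2-fold), and Dock1, an activator of Rac, rose from 8.57 to 18.8 FPKM. Nedd9 among these rises and Ptk2b among the falls passed the filter through 1 line only and so had to differ, as did Tns1 among the rises of the adaptors. The paxillin-binding gene Git1 fell from 91.0 to 39.5 FPKM and the kinase gene Fyn from 38.5 to 19.9 FPKM. Of 12 tetraspanins and other lateral partners 3 rose and 7 fell, with a median of -0.19. The tetraspanin Cd9 rose 3.00-fold to 108 FPKM and Cd47 from 32.9 to 44.7 FPKM. The urokinase receptor gene Plaur fell 4.31-fold, from 74.3 to 17.2 FPKM, and Slc3a2, whose protein binds beta1 and beta3 tails, from 414.7 to 173.1 FPKM.

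Ligands and matrix partners included the type IV collagen genes, which rose, while Lamb1, Lamb2 and Lamc1 fell. The counts of these lists stand against the same shares of all tested genes, 43.1% higher and 42.9% lower, and Nid2 and Col1a2 among the rises passed the filter through MC38.T4 only. Of 7 tested basement membrane partners of laminin 5 rose and 1 fell, with a median log2 difference of 0.93. The type IV collagen genes Col4a1 (26.7 ± 1.1 to 84.3 ± 4.9 FPKM, adjusted p = 3.6e-14) and Col4a2 (17.5 ± 0.96 to 55.6 ± 3.0 FPKM, adjusted p = 5.42e-14), which form 1 trimer, rose 3.16-fold and 3.18-fold. Agrn, a proteoglycan that bridges laminin and dystroglycan, fell from 26.9 to 20.3 FPKM. Of 13 tested genes for laminin receptors other than integrins and for the sugar chains of dystroglycan 9 rose and 2 fell, with a median of 0.40. Pomgnt1, a glycosyltransferase of the dystroglycan sugar, rose 4.45-fold from 8.44 to 37.6 FPKM, and the syndecan gene Sdc2 from 20.2 to 47.5 FPKM. Sgcb, a sarcoglycan, fell from 12.4 to 9.56 FPKM and Sdc1 from 25.4 to 22.3 FPKM. Of 15 tested other ligands and counter-receptors 10 rose and 4 fell, with a median of 0.52. The RGD ligand gene Spp1 (osteopontin) rose from 12.4 to 627.6 FPKM and the collagen gene Col3a1 from 6.44 to 247.4 FPKM. Ltbp1, which holds latent TGF-beta in the matrix, fell 3.16-fold from 36.5 to 11.52 FPKM, and Ccn1, a matricellular ligand of alphav and alpha6 integrins, 2.30-fold from 57.3 to 24.9 FPKM.

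Fibroblast and pericyte markers moved with the lines. In that list 5 of 12 genes were tested and all 5 were called higher, against 43.1% of all tested genes. The list summed to between 33.9 and 36.9 FPKM in MC38 and between 108.8 and 117.7 FPKM in MC38.T4. Its most abundant genes were the matrix proteoglycan gene Dcn, which rose from 16.8 ± 1.6 to 58.1 ± 3.7 FPKM (limma adjusted p = 8.99e-13), and the receptor gene Pdgfra, which rose from 12.4 ± 0.60 to 24.5 ± 0.46 FPKM (adjusted p = 3.01e-12). Pdgfrb and Acta2, 2 of the 5, passed the filter through MC38.T4 only and so had to differ. The filter fixed the direction of these 2, so their rises add nothing to the count. Thy1 and Tcf21 were at 0 in all 10 libraries. Endothelial markers summed to at most 0.626 FPKM in MC38 and 1.26 FPKM in MC38.T4, with Eng between 0.344 and 0.430 FPKM in all 10 libraries, Pecam1 at means of 0.0404 and 0.529 FPKM, and Cdh5 at or below 0.0661 FPKM. The part of these genes and of the epithelial markers in the subunit differences was not tested.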

How the data were processed

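RNA of 5 MC38 and 5 MC38.T4 libraries was sequenced, per the labels' protocols, after polyA selection with a stranded Illumina kit. The authors deposited 1 table of FPKM, 1 column per library. The submitters' processing notes name the build GRCm39 and the tool DESeq2, without version or role. Aligner, annotation, filters and the handling of reads shared by related genes: not given in the sources used here. All columns were mapped by library name.

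Genes with at least 1 FPKM in at least 5 libraries (11110) were tested on log2(FPKM + 1) with limma 3.58.1 in R 4.3.3 (trend, robust, group term only, two-sided, threshold 0.05). No count test was run, as the table holds no counts. Sums, shares and exact permutations used Python 3.11.15, pandas 2.3.3, NumPy 2.4.6 and SciPy 1.17.1, and figures matplotlib 3.10.9. On simulated data for these genes, with 200 of them changed, the fit recovered 74% of genes changed by 0.25 and 100% of those changed by 1 (log2). Of its calls 6.06% were false. Far more genes were called in the real data (86.0%), so these shares need not hold there.

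All 36 members described are named, and 1 gene that the rule also picks is not reported here. Of each partner list the 2 largest rises and 2 largest falls are, and of each marker list the 2 most abundant genes, with some defining markers chosen after their values were seen. Members and lists were chosen with earlier results of these data known. Alternatives were no filter, a filter at 5 FPKM, a 0.1 pseudocount, array weights, equal medians, TPM, quantile normalization, a replicate block and omission of each library. Omission of MC38 replicate 1 together with MC38.T4 replicate 4 was chosen after seeing the data.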

Additional observations from a re-analysis of the deposited data

Results flagged for a closer look

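Itga6 and Itgav each had 1 library far from the others of its line, with a gap to the next value above 0.71 of the line's range. Both were in MC38 replicate 1, the library with the lowest sum of FPKM (442183). Itga6 was 46.96 FPKM there, against 34.7 to 37.5 FPKM in the other MC38 libraries. Itgav was 62.1 FPKM there, against 51.5 to 54.1 FPKM. Of 26 groups of 5 libraries examined 2 stood out in this way, and chance gives about 1 in 20.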

How the results depend on the processing

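Of 245 member values under 19 alternatives 237 kept their direction and their side of the threshold, and none changed sign. The exceptions were Itgb1, whose call was lost after rescaling to TPM, and Itga5, which passed as lower in 7 alternatives: rescaling to TPM, equal medians, array weights, leaving out MC38 replicate 1, MC38 replicate 4 or MC38.T4 replicate 4, and leaving out MC38 replicate 1 with MC38.T4 replicate 4. Without a filter 8 members rose and 12 fell, since all 36 then entered the fit. Leaving out single libraries gave 4 rises and 8 or 9 falls. With the replicate number as a block 4 members rose and 8 fell, and 9534 of all genes were called in place of 9555. Deviations of same-numbered libraries correlated between -0.129 and 0.142. MC38 replicates 1 and 2 correlated best with the MC38.T4 library of their own number, and replicates 3, 4 and 5 did not. Pairing by number was thus not shown, and such weak correlations cannot exclude it. Depth limits the 23 low genes: read counts behind their FPKM are not given, so no counting error can be given for them.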
